A study of Arabidopsis thaliana with 18 samples.

Results

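The response of wild-type (WT, ecotype Col-0) roots to lysoPAF and ONO given together was read from the 3 WT libraries grown on medium with both compounds, set against the 3 WT libraries grown on control medium. These are 6 of the 18 libraries of the series and were chosen by their labels alone. Of the 35197 rows in the table of normalized counts, the 23760 genes with a summed count of 5 reads or more over the 18 libraries were compared. All seedlings grew on Murashige and Skoog (MS) medium of reduced strength, and roots were taken at 5 days after germination. The WT lysoPAF+ONO medium held lysoPAF at 20 µg/mL and ONO-RS-082 (ONO) at 50 µM by the labels. The results text and a figure legend of the study give the ONO dose in mass per volume instead (50 µg/mL). The WT lysoPAF medium held the same dose of lysoPAF without ONO, and the WT control medium held neither. The *lpcat* seedlings, used here for the test of the difference between genotypes and in the shared estimate of the spread, carry disruptions of both LPCAT1 and LPCAT2 in the Col-0 background and were grown on the same 3 media, again with 3 libraries each. The series holds no libraries with ONO alone, so an action of ONO by itself and an action on top of lysoPAF cannot be told apart. The labels do not say whether replicates came from separate cultures, and p-values then measure only the spread between these libraries, which may be technical.

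Phosphatidylcholine (PC) is the main phospholipid of the membranes made at the endoplasmic reticulum (ER). In the Lands cycle, phospholipase A2 removes a fatty acid from PC to leave lysophosphatidylcholine (LPC), and LPC acyltransferases (LPCATs) put one back. LysoPAF resembles LPC but carries its chain on an ether bond, and ONO blocks phospholipase A2. The young root that was sequenced holds root hairs, which take up water and ions, an endodermis sealed by the Casparian strip and by suberin, a vascular cylinder, and a growing tip under the root cap. It also makes tryptophan-derived defence compounds, camalexin and the indole glucosinolates.

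Sequencing depth was 8681898 to 16767002 gene reads per library (median 10316716.5). Markers of root tissue were at their place: none of the 26 root hair genes, 14 endodermis genes and 22 xylem genes tested was at 0 in any of the 6 WT libraries compared. The summed level of 20 photosynthesis genes of the nucleus, markers of green tissue, was 2592, 2622 and 3065 normalized counts in WT lysoPAF+ONO libraries, against 3679, 3795 and 8292 in WT control libraries, and WT control replicate 3 stood apart. Reads from plastid encoded genes set the same library apart, with 118.1, 125.3 and 151.2 normalized counts in WT lysoPAF+ONO libraries, against 140.9, 162.1 and 952.8 in WT control libraries. Among the *lpcat* libraries, control replicate 2 lay at 34.31 on the first principal component (40.1% of the variance of the 2000 most variable genes), against -30.38 and -33.55 for the other *lpcat* controls and 30.93, 38.93 and 37.36 for the *lpcat* lysoPAF libraries, so that it lay among the treated ones. The cause was not tested. It entered the estimate of the spread, so counts are also given without it where they moved by over 1.5 times.

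The genes of the LPCATs themselves showed no difference past the threshold in WT roots. LPCAT1 (AT1G12640) had 342, 286 and 307 normalized counts in WT lysoPAF+ONO libraries, against 295, 247 and 250.4 in WT control libraries (log2 fold change 0.24 ± 0.14, adjusted p = 0.33, where ± is the standard error). LPCAT2 (AT1G63050) had 207, 213 and 195 normalized counts under lysoPAF plus ONO, against 197, 234 and 218 in controls (log2 fold change -0.07 ± 0.10, adjusted p = 0.698). The libraries of both media overlapped for either gene. In the 9 *lpcat* libraries LPCAT1 stood at 47.28 to 72.15 normalized counts, below every WT library. LPCAT2 stood there at 435.3 to 773.6, above every WT library, and where on the disrupted gene these reads lie was not analysed here.

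Lysophospholipid and inhibitor together moved many more genes up than down. With an adjusted p under 0.05 in limma and a log2 fold change over 1 on the scale of log2(normalized count + 1), which understates the change of genes with few reads, 474 genes (1.99% of those tested) were higher in WT lysoPAF+ONO roots than in WT control roots. With the same p and a log2 fold change under -1, 109 genes (0.459%) were lower. This number was 184 without *lpcat* control replicate 2, 71 with a pseudocount of 5 in place of 1, and 53 at an adjusted p under 0.01. The median log2 fold change was 1.495 among the genes called higher and -1.44 among those called lower, and -0.01 over all genes tested. In 468 of the 474 and in 108 of the 109, the 3 libraries of each medium did not overlap, against 15.6% of all genes tested that did not overlap upward and 14.5% downward. The calls rest on the same libraries, so this difference is no separate evidence for them. Large changes lay on the upper side, where 123 genes exceeded a log2 fold change of 2 and 35 exceeded 3, while 11 genes fell below -2 and 0 below -3. Of the 474, 173 averaged under 10 normalized counts in WT control, so their fold changes rest on few reads. By the adjusted p alone, which is used below for members of gene lists, 1518 genes (6.39%) were higher and 791 (3.33%) were lower.

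**Figure D1:**
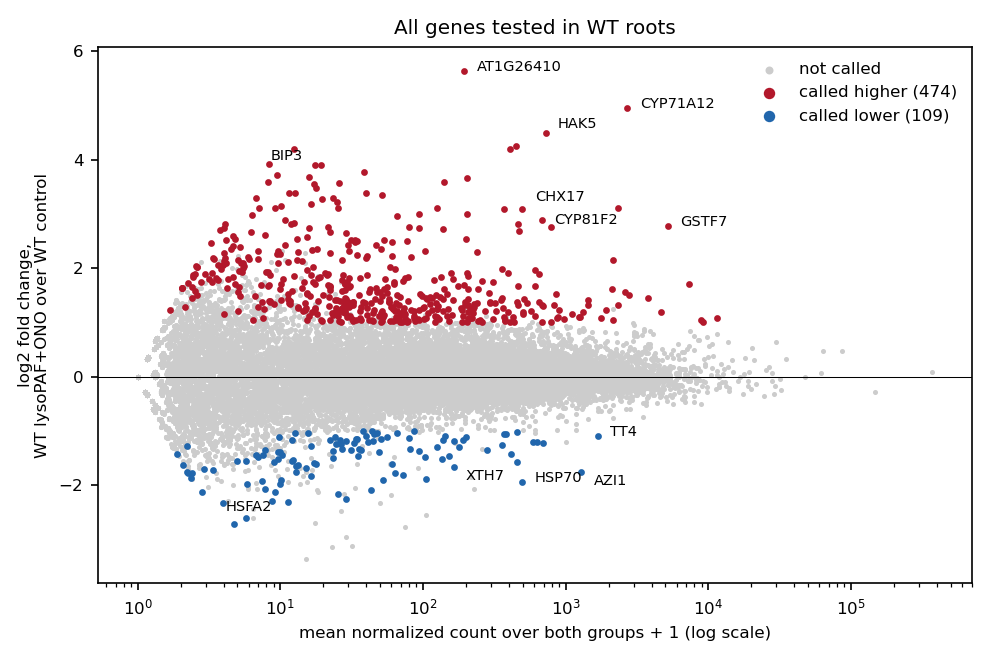
The horizontal axis gives the mean level of each of the 23760 genes tested and the vertical axis its log2 fold change in WT lysoPAF+ONO over WT control roots, each point being 1 gene. Genes called higher (474) reach further from 0 than genes called lower (109).

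The response can be followed in its steps with the WT lysoPAF libraries, which stand in both steps, so the values are given side by side and were not compared with each other. LysoPAF against control called 68 genes higher (0.286% of those tested) and 20 lower (0.0842%). LysoPAF plus ONO against lysoPAF called 271 genes higher (1.14%) and 90 lower (0.379%). Of the 474 genes called higher with both compounds, 67 had an adjusted p under 0.05 in the first step and 258 in the second. Each step shares libraries with the comparison that called these genes, so these counts are partly set by the design. They do not tell which compound moved the genes.

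The largest rises were in genes of defence chemistry and ion uptake. They were ranked only among called genes whose libraries do not overlap between the groups. The largest was in AT1G26410, a berberine bridge enzyme-like oxidase, with 359.9, 371 and 406 normalized counts in WT lysoPAF+ONO libraries and 5.54, 7.67 and 6.98 in WT control libraries (log2 fold change 5.63 ± 0.30, adjusted p = 1.86e-10). Its neighbour AT1G26380, known as FOX1 and required for an indole cyanogenic defence compound, had 754, 755 and 820.3 normalized counts with both compounds and 41.9, 55.6 and 30.9 in controls (log2 fold change 4.19 ± 0.25, adjusted p = 1.05e-09). For both oxidases every treated library was far above every control library, and lysoPAF alone lay between, at 21.0, 14.2 and 21.0 for AT1G26410 and 115, 103 and 85.2 for AT1G26380. CYP71A12 (AT2G30750), a cytochrome P450 that converts indole acetaldoxime to indole acetonitrile, had 5301, 5151 and 5247 normalized counts with both compounds, 218, 248 and 217 with lysoPAF and 168, 172 and 164 in controls (log2 fold change 4.96 ± 0.13, adjusted p = 1.81e-15). For this gene the lysoPAF libraries lay close to the controls, with a first-step log2 fold change of 0.44 (adjusted p = 0.0795) and a second-step one of 4.52 (adjusted p = 1.07e-14). HAK5 (AT4G13420), the high-affinity potassium transporter of roots, had 1277, 1191 and 1684 normalized counts with both compounds, 42.0, 74.7 and 66.2 with lysoPAF and 68.8, 67.1 and 45.9 in controls (log2 fold change 4.50 ± 0.42, adjusted p = 7.51e-07). Again only the libraries with ONO stood apart.

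Wall, receptor and redox genes filled most of the rest of the 12 largest rises, beside BIP3, which is described with the ER genes. AT1G26240, annotated as a proline-rich extensin-like protein of the cell wall, had 668, 597 and 1304 normalized counts under lysoPAF plus ONO, against 36.4, 40.3 and 48.9 in controls (log2 fold change 4.24 ± 0.37, adjusted p = 3.18e-07). CRK20 (AT4G23280), a cysteine-rich receptor-like kinase, had 34.7, 31.6 and 28.6 normalized counts under lysoPAF plus ONO, against 0.791, 0.959 and 2.00 in controls (log2 fold change 3.89 ± 0.36, adjusted p = 6.78e-07), and its control level rests on 1 to 2 reads a library, so that the fold depends on the added 1. That no treated library overlapped a control for either gene follows from how the 12 were chosen. PXMT1 (AT1G66700), a methyltransferase of the SABATH family, had 359.9, 382 and 387 normalized counts under lysoPAF plus ONO, against 23.7, 41.2 and 23.9 in controls (log2 fold change 3.67 ± 0.30, adjusted p = 1.78e-07). GSTF3 (AT2G02930), a phi-class glutathione S-transferase, had 224, 220.1 and 326 normalized counts under lysoPAF plus ONO, against 23.7, 15.3 and 21.9 in controls (log2 fold change 3.59 ± 0.29, adjusted p = 1.11e-07). The ferric reductase gene FRO5 (AT5G23990) had 88.1, 61.1 and 61.9 normalized counts under lysoPAF plus ONO, against 5.54, 9.59 and 0.998 in controls (log2 fold change 3.77 ± 0.51, adjusted p = 6.47e-05). CYP82C4 (AT4G31940), which oxidises the coumarin fraxetin to sideretin under iron deficiency, had 16.9, 31.6 and 36.7 normalized counts under lysoPAF plus ONO, against 0.791, 0.959 and 2.00 in controls (log2 fold change 3.68 ± 0.70, adjusted p = 0.00169), again on 1 to 2 control reads a library. The receptor-like protein gene RLP7 (AT1G47890) had 52.5, 31.6 and 50.4 normalized counts under lysoPAF plus ONO, against 3.96, 0 and 9.98 in controls (log2 fold change 3.56 ± 0.58, adjusted p = 0.000418), with 0 in 1 control library, and was not past the threshold when the 6 libraries were fitted alone.

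The promoters of AT1G26410, AT1G26380 and CRK20 are shown because they are the first 3 of these 12 genes, by size of the rise, to hold a W-box, the site bound by WRKY transcription factors. Each runs from 250 bases before to 50 bases after the annotated gene start in TAIR10.1 (RefSeq), 5′ to 3′ on the strand of the gene, with TTGACC or TTGACT on either strand in capitals. They lie at chr1:9140390-9140689 on the minus strand, chr1:9128519-9128818 on the minus strand and chr4:12174483-12174782 on the plus strand, in the order given here.
AT1G26410: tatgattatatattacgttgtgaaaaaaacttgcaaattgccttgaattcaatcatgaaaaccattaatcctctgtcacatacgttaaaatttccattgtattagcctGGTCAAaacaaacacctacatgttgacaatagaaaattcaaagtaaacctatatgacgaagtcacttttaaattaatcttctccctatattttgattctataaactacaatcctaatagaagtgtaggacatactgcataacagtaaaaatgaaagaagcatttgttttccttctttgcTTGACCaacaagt
AT1G26380: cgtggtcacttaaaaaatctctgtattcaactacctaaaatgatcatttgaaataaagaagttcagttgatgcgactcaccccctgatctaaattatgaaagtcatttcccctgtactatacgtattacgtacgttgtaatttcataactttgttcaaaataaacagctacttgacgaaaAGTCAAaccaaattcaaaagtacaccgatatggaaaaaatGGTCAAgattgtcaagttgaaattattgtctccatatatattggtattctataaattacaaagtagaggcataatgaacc
CRK20: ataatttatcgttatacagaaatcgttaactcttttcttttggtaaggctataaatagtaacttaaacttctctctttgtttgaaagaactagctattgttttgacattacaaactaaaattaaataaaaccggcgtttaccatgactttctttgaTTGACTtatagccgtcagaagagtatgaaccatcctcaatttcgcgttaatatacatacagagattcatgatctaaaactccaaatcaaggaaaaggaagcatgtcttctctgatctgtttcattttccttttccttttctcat
In AT1G26410 the matches begin 142 bases before and 37 bases after the gene start, in AT1G26380 they begin 70 and 30 bases before it, and in CRK20 the single match begins 94 bases before it. PXMT1, GSTF3 and RLP7 hold 1 match each, so that 6 of the 12 promoters have one, and those of CYP71A12, HAK5, AT1G26240, BIP3, FRO5 and CYP82C4 have none in this window. Over all promoters of genes called higher that could be read, 221 of 444 (49.8%) held a W-box, against 31 of 100 (31.0%) of genes called lower and 32.9% of all 20944 promoters. The phosphate response motif P1BS (GNATATNC, both strands) was in 10.4% of promoters called higher, 0 of 100 called lower and 6.16% of all. The heat shock element (GAANNTTC) was in 17.1%, 8.0% and 11.4% in the same order, and the G-box (CACGTG), which can overlap the ABRE core (ACGTGNC), in 5.41%, 11.0% and 8.75%. These shares describe letters in a window and were not tested.

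**Figure D2:**
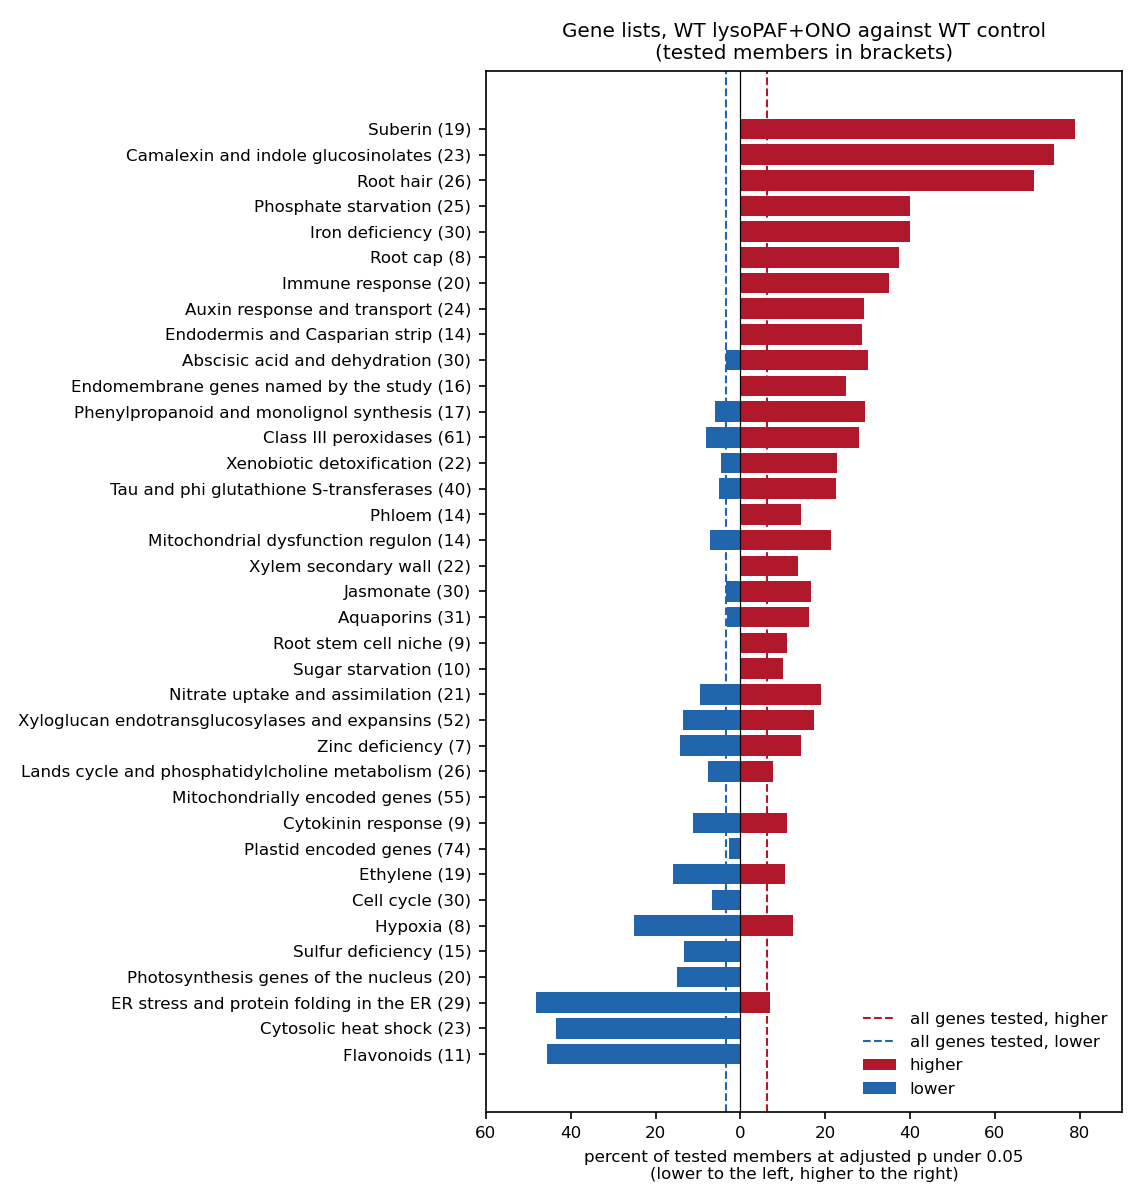
Each row is a gene list; bars give the percentage of its tested members that were higher (to the right) or lower (to the left) in WT lysoPAF+ONO than in WT control roots at an adjusted p under 0.05. Dashed lines mark the shares over all genes tested, 6.39% higher and 3.33% lower.

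Genes of the tryptophan-derived defence pathway rose together. Of 23 genes for camalexin and indole glucosinolates, 17 were higher and 0 lower, with a median log2 fold change of 0.63, where 6.39% of all genes tested were higher and the median over all was -0.01. CYP81F2 (AT5G57220), which hydroxylates indole glucosinolates, had 1234, 1167 and 1208 normalized counts with both compounds, 136, 150.3 and 128 with lysoPAF and 161, 174 and 149 in controls (log2 fold change 2.89 ± 0.11, adjusted p = 1.43e-12). IGMT2 (AT1G21120), which methylates the product, had 1409, 1400 and 1322 normalized counts with both compounds, 184, 171 and 182 with lysoPAF and 204, 177 and 232 in controls (log2 fold change 2.75 ± 0.15, adjusted p = 2.2e-10). In both genes only the libraries with ONO stood far above the controls. CYP71A13, the close copy of CYP71A12, rose too (log2 fold change 3.35 ± 0.45, adjusted p = 5.27e-05), as did CYP82C2 (AT4G31970), which hydroxylates indole carbonyl nitriles (log2 fold change 2.52 ± 0.51, adjusted p = 0.00307). Reads of such near-identical copies, among them IGMT1 and IGMT2, can be shared in the counting. Genes of tryptophan supply had smaller fold changes. TSA1, the alpha subunit of tryptophan synthase, had 1900, 1885 and 1887 normalized counts under lysoPAF plus ONO, against 1226, 1125 and 1102 in controls (log2 fold change 0.72 ± 0.08, adjusted p = 7.42e-06), and CYP79B2, which makes indole acetaldoxime from tryptophan, had a log2 fold change of 0.77 ± 0.09 (adjusted p = 2.11e-05). Of the regulators, MYB51 (log2 fold change 0.92 ± 0.13) and WRKY33 (0.57 ± 0.11) rose, whereas MYB34 (-0.18 ± 0.08) was not past the threshold. PAD3, which makes camalexin in the last step, was not past it either (log2 fold change 0.63 ± 0.41, adjusted p = 0.381).

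**Figure D3:**
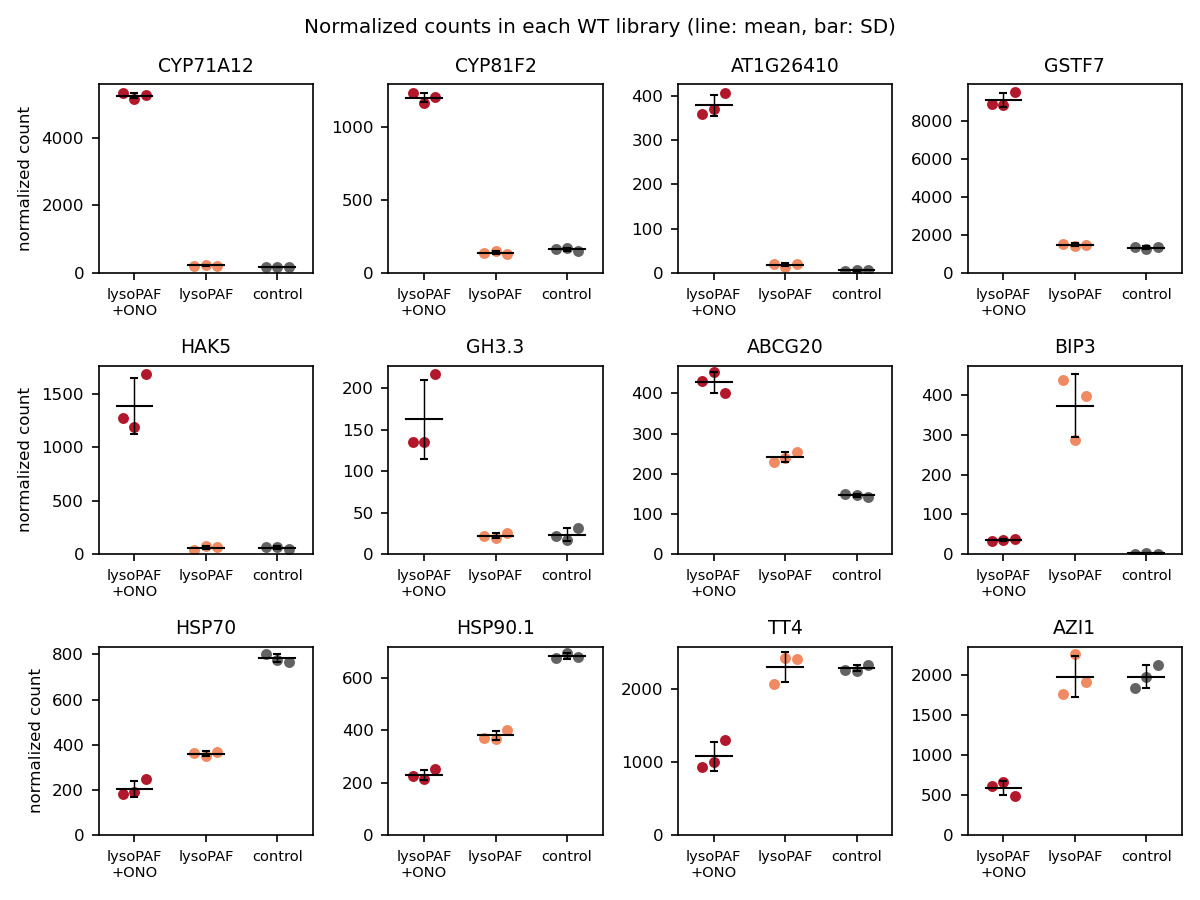
Each panel plots 1 of 12 genes, with normalized counts on the vertical axis and the WT lysoPAF+ONO, WT lysoPAF and WT control libraries as points; lines are group means and bars the SD over 3 libraries. CYP71A12, CYP81F2, GSTF7 and HAK5 are high only in the 3 libraries with ONO, BIP3 is highest with lysoPAF alone, and HSP70 falls in both steps.

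The berberine bridge enzyme-like family was added to the lists after its values were seen. Of 20 members tested, 10 were higher and 1 was lower. After the genes of largest rise came AT1G26420, with 238, 229 and 207 normalized counts with both compounds, 58.8, 48.2 and 61.0 with lysoPAF and 25.3, 26.9 and 22.9 in controls (log2 fold change 3.12 ± 0.28, adjusted p = 5.89e-07), and AT1G26390 (log2 fold change 2.21 ± 0.35, adjusted p = 0.000335). All 4 of these oxidase genes carry neighbouring gene numbers on chromosome 1. The member that fell was AT5G44400 (log2 fold change -0.60 ± 0.12, adjusted p = 0.00254), and a further member was lower without WT control replicate 1.

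Glutathione S-transferases, which attach glutathione to reactive compounds, rose in a few members by large amounts. Of 40 tau and phi members tested, 9 were higher and 2 lower, and the median log2 fold change was 0.05. GSTF7 (AT1G02920) had 8871, 8865 and 9506 normalized counts with both compounds, 1550, 1407 and 1491 with lysoPAF and 1381, 1254 and 1361 in controls (log2 fold change 2.77 ± 0.12, adjusted p = 1.68e-11). Its near-identical neighbour GSTF6 had 3781, 4040 and 4619 normalized counts under lysoPAF plus ONO, against 476, 439 and 526 in controls (log2 fold change 3.11 ± 0.16, adjusted p = 9.81e-11), and some of these reads may belong to either copy. GSTU10 followed with 312, 322 and 302 normalized counts under lysoPAF plus ONO, against 108, 103 and 95.8 in controls (log2 fold change 1.61 ± 0.14, adjusted p = 3.87e-07). None of these libraries overlapped between media, which also held upward for 15.6% of all genes tested. The number of members higher was 5 without WT lysoPAF+ONO replicate 2 and 5 without replicate 3, and the number lower was 4 without *lpcat* control replicate 2.

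Immune regulators and receptors were higher in part. Of 20 immune response genes tested, 7 were higher and 0 lower, with a median log2 fold change of 0.34. CBP60G (AT5G26920), which switches on salicylic acid synthesis, had 71.2, 77.9 and 64.2 normalized counts with both compounds, 7.56, 14.2 and 13.7 with lysoPAF and 4.75, 10.6 and 3.99 in controls (log2 fold change 3.38 ± 0.37, adjusted p = 5.88e-06). NHL10, a marker of pattern-triggered immunity, had 557, 573 and 575 normalized counts with both compounds, 310.1, 332 and 309 with lysoPAF and 131, 162 and 139.7 in controls (log2 fold change 1.98 ± 0.37, adjusted p = 0.00143), so that lysoPAF alone lay in the middle. FRK1, the flagellin-induced kinase, also rose (log2 fold change 2.64 ± 0.61, adjusted p = 0.00795). ICS1, the enzyme of salicylic acid synthesis itself (log2 fold change 0.06 ± 0.15, adjusted p = 0.846), and its regulators EDS1 (-0.10 ± 0.10) and PAD4 (-0.23 ± 0.14) were not past the threshold. SOBIR1, a co-receptor of receptor-like proteins that overlaps another gene, rose by 0.63 ± 0.12 on the log2 scale.

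Families of signalling genes were described after their values were seen. Among 65 WRKY transcription factors tested, 14 were higher and 1 lower. WRKY31 had 277, 280.2 and 353 normalized counts under lysoPAF plus ONO, against 116, 102 and 117 in controls (log2 fold change 1.43 ± 0.11, adjusted p = 6.53e-08). Of 30 genes taken by the name pattern of cysteine-rich receptor-like kinases, 9 were higher and 0 lower, among them CRK25 with 747, 646 and 708 normalized counts under lysoPAF plus ONO, against 366, 378 and 381 in controls (log2 fold change 0.90 ± 0.11, adjusted p = 2.6e-05); the pattern also took CCR4, a kinase of the CRINKLY4 family, which is 1 of the 9. Of 20 glutamate receptor-like channels, which carry calcium into the cell, 6 were higher and 0 lower. GLR2.7 had 30.0, 28.4 and 27.5 normalized counts under lysoPAF plus ONO, against 5.54, 8.63 and 7.98 in controls (log2 fold change 1.84 ± 0.35, adjusted p = 0.00189), and GLR2.8, whose control libraries held 0 to 3 reads, stood at 20.6, 17.9 and 20.6 normalized counts with both compounds. The number of WRKY factors higher was 8 without WT control replicate 2 and 9 without WT lysoPAF+ONO replicate 2, and 0 were lower without WT control replicate 2 or 3 or WT lysoPAF+ONO replicate 3. The number of kinases higher was 4 without WT control replicate 2 and 5 without WT lysoPAF+ONO replicate 1 or 2.

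A few other transporters of potassium and protons rose beside HAK5. CHX17 (AT4G23700), a cation/proton exchanger of root cells, had 827, 830.0 and 1004 normalized counts with both compounds, 149.6, 154 and 150.4 with lysoPAF and 91.8, 123 and 96.8 in controls (log2 fold change 3.09 ± 0.15, adjusted p = 5.85e-11). KUP10 had 874, 789 and 886 normalized counts under lysoPAF plus ONO, against 537, 597 and 532 in controls (log2 fold change 0.61 ± 0.08, adjusted p = 6.55e-05). Over the 21 members tested of the KUP/HAK transporters and CHX exchangers, a family described after values were seen, 4 were higher and 0 lower. These counts were 6 and 1 without *lpcat* control replicate 2.

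Iron uptake genes were higher in part. Of 30 genes of the iron deficiency response tested, 12 were higher and 0 lower, with a median log2 fold change of 0.39. F6'H1 (AT3G13610), which makes the coumarin scopoletin for iron mobilisation, had 1561, 1424 and 1630 normalized counts with both compounds, 613, 572 and 641 with lysoPAF and 745, 634 and 694 in controls (log2 fold change 1.15 ± 0.15, adjusted p = 5.26e-05). ABCG37, the exporter of coumarins, had 3212, 2978 and 3458 normalized counts under lysoPAF plus ONO, against 1975, 2020 and 2306 in controls (log2 fold change 0.62 ± 0.09, adjusted p = 0.000129). The iron transporters IRT2, with 294, 302 and 198 normalized counts under lysoPAF plus ONO, against 102, 97.8 and 135 in controls (log2 fold change 1.23 ± 0.17, adjusted p = 6.21e-05), and IRT1 (log2 fold change 2.48 ± 0.55, adjusted p = 0.00619) rose. So did NAS2, a nicotianamine synthase (log2 fold change 1.82 ± 0.33, adjusted p = 0.00105), although not with the 6 libraries fitted alone, and the ferric reductase FRO2 (log2 fold change 1.47 ± 0.37, adjusted p = 0.0152), although not without WT lysoPAF+ONO replicate 1 or 3. The regulators of these genes were not past it: FIT had a log2 fold change of -0.20 ± 0.10, BHLH38 of 0.66 ± 0.84, BHLH39 of 0.40 ± 0.54 and BHLH100 of -0.39 ± 0.80.

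Phosphate starvation genes were higher in part, with 10 of 25 higher and 0 lower and a median log2 fold change of 0.75. The phosphate transporter gene PHT1;4 (AT2G38940) had 449.9, 401 and 512 normalized counts with both compounds, 345, 362 and 364 with lysoPAF and 209.7, 201 and 175 in controls (log2 fold change 1.21 ± 0.18, adjusted p = 0.000188). SQD2, which makes the sulfolipid that replaces phospholipid, had 644, 662 and 496 normalized counts under lysoPAF plus ONO, against 344, 338 and 363 in controls (log2 fold change 0.77 ± 0.17, adjusted p = 0.00577). The libraries did not overlap for either gene, nor upward for 15.6% of all genes tested. The number of members higher was 4 without WT control replicate 3, 5 without WT lysoPAF+ONO replicate 1, 6 without replicate 2 or 3 of that group, and 15 without *lpcat* control replicate 2. IPS1, the noncoding RNA that sequesters a microRNA of this response, had a log2 fold change of 1.502 ± 0.64 (adjusted p = 0.158) and was not past the threshold.

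In the nitrogen list, 4 of 21 members were higher and 2 lower, with a median log2 fold change of 0.28. AMT1;1 (AT4G13510), the main ammonium transporter of root hairs and epidermis, had 1224, 1264 and 1106 normalized counts with both compounds, 797, 794 and 779 with lysoPAF and 571, 554 and 543 in controls (log2 fold change 1.103 ± 0.09, adjusted p = 1.02e-07), and overlaps an antisense noncoding gene whose reads cannot be told apart without strand. NRT3.1, the partner of the high-affinity nitrate transporters, had 275, 256 and 329.9 normalized counts under lysoPAF plus ONO, against 142, 122 and 139 in controls (log2 fold change 1.09 ± 0.16, adjusted p = 0.000144). NRT2.1 itself was not past the threshold (log2 fold change 0.94 ± 0.53, adjusted p = 0.301). The number higher was 2 without WT control replicate 1 or 2 and without WT lysoPAF+ONO replicate 1 or 3, and 8 without *lpcat* control replicate 2. Lower were 1 without WT control replicate 1 or 2, and 0 without WT control replicate 3 or WT lysoPAF+ONO replicate 1 or 2.

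Genes that build and export suberin, the waxy barrier of the endodermis, rose as a group. Of 19 tested, 15 were higher and 0 lower, with a median log2 fold change of 0.85. Of the exporters, ABCG20 (AT3G53510) had 430.2, 453 and 401 normalized counts with both compounds, 229, 240.2 and 253 with lysoPAF and 150.4, 146 and 143 in controls (log2 fold change 1.54 ± 0.18, adjusted p = 9.85e-06). ABCG6 (AT5G13580) had 882, 802 and 841 normalized counts with both compounds, 508, 590.0 and 573 with lysoPAF and 389, 379 and 387 in controls (log2 fold change 1.13 ± 0.15, adjusted p = 3.7e-05). In both genes lysoPAF alone lay in the middle. ABCG20 rose in each step, with log2 fold changes of 0.72 and 0.83 (adjusted p = 0.038 and 0.00821), while the first step of ABCG6 (0.53, adjusted p = 0.0577) missed the threshold. Of the enzymes, CYP86A1 (AT5G58860), which oxidises the chain end of fatty acids, had 1818, 2032 and 1661 normalized counts under lysoPAF plus ONO, against 814, 785 and 798 in controls (log2 fold change 1.19 ± 0.16, adjusted p = 4.99e-05). The acyltransferases GPAT5 (1.28 ± 0.21) and GPAT7 (1.84 ± 0.26) and the fatty acyl reductases FAR4 (0.90 ± 0.14) and FAR5 (0.96 ± 0.17) rose on the log2 scale, and so did the regulator MYB93 (0.84 ± 0.14). FAR1 (-0.17 ± 0.11), MYB92 (-0.02 ± 0.08), FACT (0.08 ± 0.09) and MYB53 (0.67 ± 0.24) were not past the threshold. In bulk roots a change in the number of cells of a type and a change in RNA per cell cannot be told apart, here and for the other cell types.

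**Figure D4:**
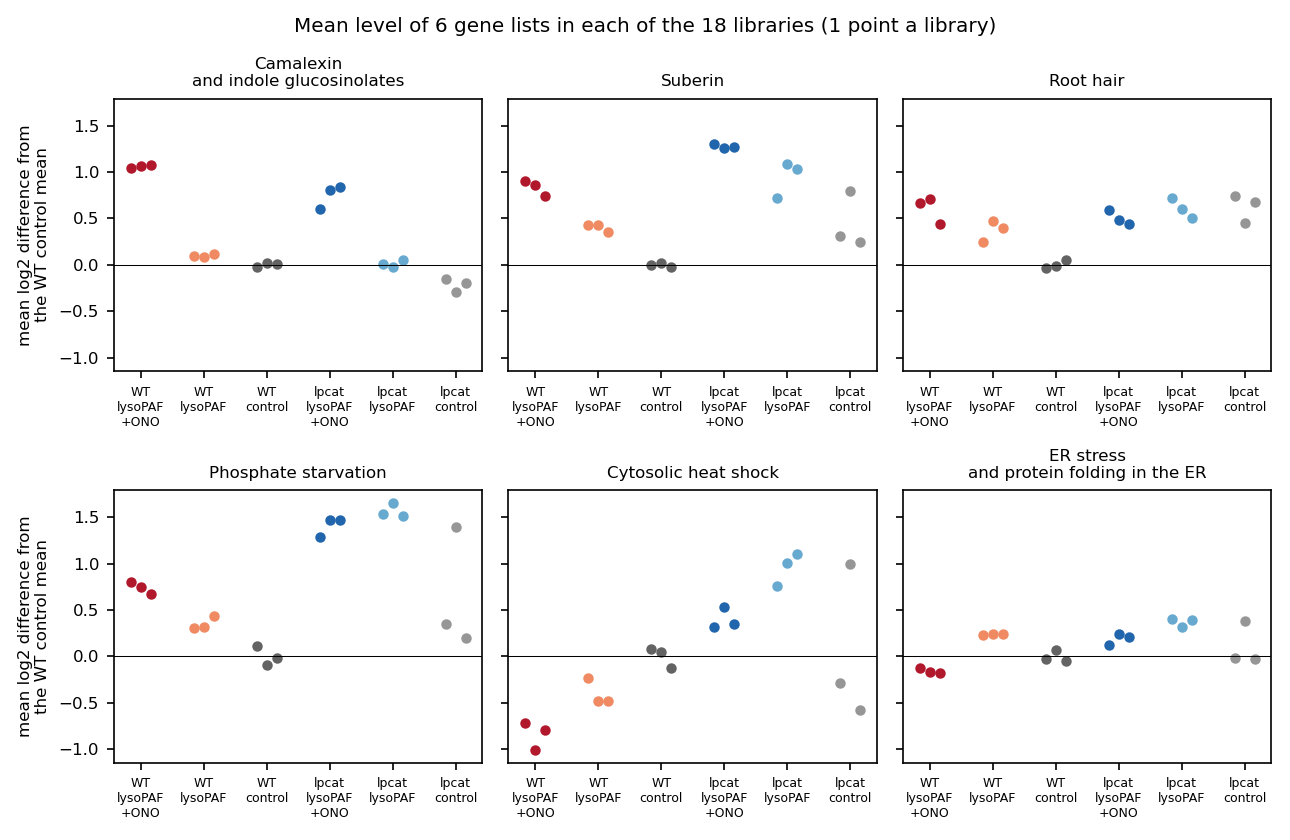
Panels give 6 gene lists; the vertical axis is the mean log2 difference of the list's members from their WT control mean, and each point is 1 of 18 libraries by group. Suberin genes lie at 0.75 to 0.91 in WT lysoPAF+ONO libraries and at -0.02 to 0.02 in WT control libraries, and *lpcat* control replicate 2 stands apart from its group in the phosphate, heat shock and ER panels.

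Genes of the Casparian strip were higher in few members. Of 14 endodermis genes tested, 4 were higher and 0 lower, with a median log2 fold change of 0.15. SGN3, the receptor kinase that guards the strip, had 559, 509 and 447 normalized counts under lysoPAF plus ONO, against 358, 373 and 352 in controls (log2 fold change 0.48 ± 0.08, adjusted p = 0.000772). CASP1, which places the strip in the membrane, had 1277, 1283 and 1342 normalized counts under lysoPAF plus ONO, against 1060, 967 and 1068 in controls (log2 fold change 0.34 ± 0.08, adjusted p = 0.0119), and this call was lost without WT control replicate 2. The number higher was 2 without WT control replicate 1 or 2 and 2 without WT lysoPAF+ONO replicate 1.

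Wall enzymes went both ways. Among 61 class III peroxidases tested, 17 were higher and 5 lower, with a median log2 fold change of 0.21. PER4 (AT1G14540) had 637, 629 and 587 normalized counts with both compounds, 231, 213 and 221 with lysoPAF and 177, 155 and 161 in controls (log2 fold change 1.90 ± 0.15, adjusted p = 1.02e-07). AT5G39580 had 1000, 1037 and 889 normalized counts with both compounds, 234, 212 and 232 with lysoPAF and 234, 268 and 242 in controls (log2 fold change 1.97 ± 0.25, adjusted p = 2.67e-05). In both genes every treated library lay above the other media. Of all genes tested, 15.6% did not overlap upward between treated and control libraries. Without WT lysoPAF+ONO replicate 2 the number higher was 11; the number lower was 2 or 3 without any single library but WT lysoPAF+ONO replicate 3, and 10 without *lpcat* control replicate 2. Of 52 xyloglucan endotransglucosylases and expansins, which loosen and rebuild the growing wall, 9 were higher and 7 lower, with XTH7 at 72.2, 84.3 and 75.6 normalized counts under lysoPAF plus ONO, against 264, 252 and 228 in controls (log2 fold change -1.67 ± 0.19, adjusted p = 1.15e-05). The number lower was 4 without WT control replicate 1 or 2 or WT lysoPAF+ONO replicate 1, and the number higher was 15 without *lpcat* control replicate 2. Of 17 genes of phenylpropanoid and monolignol synthesis, 5 were higher and 1 lower. PAL4, which opens the pathway, had 1057, 1165 and 1025 normalized counts under lysoPAF plus ONO, against 749, 699 and 704 in controls (log2 fold change 0.59 ± 0.10, adjusted p = 0.000372), and the 1 that fell was 4CL3, the ligase that feeds flavonoid synthesis, with 55.3, 52.7 and 53.9 normalized counts under lysoPAF plus ONO, against 169, 152 and 136 in controls (log2 fold change -1.47 ± 0.17, adjusted p = 1.12e-05). Without WT control replicate 1 or WT lysoPAF+ONO replicate 1 or 2 the number higher was 2, and without WT control replicate 2 it was 3.

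Among water channels, 5 of 31 genes taken by name were higher and 1 was lower. PIP2;4 had 1266, 1277 and 1015 normalized counts under lysoPAF plus ONO, against 718, 688 and 799 in controls (log2 fold change 0.68 ± 0.11, adjusted p = 0.000479). The channel that fell was RD28, with 359.9, 346 and 363 normalized counts under lysoPAF plus ONO, against 629.9, 638 and 656 in controls (log2 fold change -0.85 ± 0.12, adjusted p = 0.000125). Without WT lysoPAF+ONO replicate 2 the number higher was 3, and without *lpcat* control replicate 2 the number lower was 2.

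Root hair genes rose by small amounts in most members. Of 26 tested, 18 were higher and 0 lower, with a median log2 fold change of 0.62. PRP1 (AT1G54970), a proline-rich wall protein of the hair, had 3278, 3418 and 3243 normalized counts with both compounds, 1317, 2306 and 1808 with lysoPAF and 1275, 1238 and 1458 in controls (log2 fold change 1.33 ± 0.14, adjusted p = 3.84e-06). The lysoPAF libraries ranged widely for this gene, and the treated libraries lay above all of them. RHD2 (AT5G51060), the NADPH oxidase of the growing hair tip, had 959, 972 and 839.8 normalized counts under lysoPAF plus ONO, against 611, 623 and 527 in controls (log2 fold change 0.65 ± 0.09, adjusted p = 9.28e-05), and EXPA18, a hair expansin, had 589.5, 597 and 511 normalized counts under lysoPAF plus ONO, against 378, 309.7 and 314 in controls (log2 fold change 0.76 ± 0.10, adjusted p = 5.11e-05). Of the transcription factors that set hair growth, RSL4 rose (log2 fold change 0.81 ± 0.15, adjusted p = 0.00128), whereas RHD6 (0.22 ± 0.17), RSL1 (0.18 ± 0.24) and RSL2 (0.30 ± 0.17) were not past the threshold. The sum over the 26 genes was 33900, 34170 and 30610 normalized counts in WT lysoPAF+ONO libraries, 22010, 29200 and 26060 in WT lysoPAF libraries and 19270, 20070 and 22480 in WT control libraries.

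Lists of other cell types of the root gave at most 3 calls each, but some of these lists are short. The share of members higher was 37.5% for root cap, 13.6% for xylem, 14.3% for phloem and 11.1% for stem cell niche genes. Over all genes tested 6.39% were higher and 3.33% lower, and 6.67% of cell cycle genes were lower. Of 8 root cap genes 3 were higher and 0 lower; PASPA3, a protease of dying cap cells, had 186, 178 and 151 normalized counts under lysoPAF plus ONO, against 96.5, 81.5 and 93.8 in controls (log2 fold change 0.91 ± 0.14, adjusted p = 0.00022). BFN1, a nuclease of the same cells, had 96.5, 119 and 69.9 normalized counts under lysoPAF plus ONO, against 57.0, 40.3 and 41.9 in controls (log2 fold change 1.00 ± 0.18, adjusted p = 0.00126), though not past the threshold with the 6 libraries fitted alone. Of 22 genes of the xylem and its secondary wall 3 were higher and 0 lower, and MC9 and RNS3, a protease and a nuclease of dying xylem cells, had log2 fold changes of 0.85 ± 0.14 and 0.94 ± 0.16 (adjusted p = 0.000467 and 0.000703). The cellulose synthases of that wall, CESA4 (-0.02 ± 0.10), CESA7 (-0.01 ± 0.09) and CESA8 (0.08 ± 0.11), were not past the threshold. Of 30 cell cycle genes 2 were lower and 0 higher (the number lower was 1 without WT control replicate 2 and 5 without replicate 2 of the *lpcat* controls), and CYCD3;1, a D-type cyclin, had 426, 424 and 509 normalized counts under lysoPAF plus ONO, against 699, 615 and 664 in controls (log2 fold change -0.54 ± 0.10, adjusted p = 0.00172). Of 9 genes of the stem cell niche 1 was higher and 0 lower, and that call, PLT1 (log2 fold change 0.36 ± 0.11, adjusted p = 0.0407), was lost without any 1 of the 6 libraries, while without *lpcat* control replicate 2 the number was 2. Of 14 phloem genes 2 were higher and 0 lower, the sugar exporters SWEET11 (0.57 ± 0.18) and SWEET12 (0.82 ± 0.20), both lost with the 6 libraries fitted alone, and this number was 0 or 1 without any 1 of the 6.

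Genes that inactivate auxin led the auxin list. Of 24 auxin genes tested, 7 were higher and 0 lower, with a median log2 fold change of 0.30. Among these are GH3 enzymes, which join auxin to amino acids. GH3.3 (AT2G23170) had 136, 135 and 218 normalized counts with both compounds, 21.9, 18.9 and 25.2 with lysoPAF and 21.4, 17.3 and 31.9 in controls (log2 fold change 2.75 ± 0.22, adjusted p = 1.42e-07). GH3.2 (AT4G37390) had 393, 386 and 415 normalized counts with both compounds, 103, 94.5 and 115 with lysoPAF and 80.7, 70.0 and 91.8 in controls (log2 fold change 2.29 ± 0.14, adjusted p = 1.05e-09). GH3.5 had 664, 733 and 915 normalized counts under lysoPAF plus ONO, against 289.6, 288 and 314 in controls (log2 fold change 1.36 ± 0.11, adjusted p = 1.92e-07). In all 3 genes the treated libraries lay above the control libraries, which also held for 15.6% of all genes tested. Early auxin reporters such as IAA1 (0.05 ± 0.09), IAA2 (0.18 ± 0.13) and IAA5 (0.02 ± 0.69) were not past the threshold on the log2 scale. The auxin exporter PIN4 rose (log2 fold change 0.65 ± 0.11, adjusted p = 0.000691). Without WT lysoPAF+ONO replicate 3 the number higher was 4.

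Of 30 abscisic acid and dehydration genes, 9 were higher and 1 lower, with a median log2 fold change of 0.27. The phosphatases that restrain the hormone's signal were among those higher, with ABI1 at 696, 807 and 663 normalized counts under lysoPAF plus ONO, against 424, 421 and 442 in controls (log2 fold change 0.75 ± 0.09, adjusted p = 1.5e-05) and ABI2 at 138, 143 and 143 normalized counts under lysoPAF plus ONO, against 60.9, 71.9 and 66.8 in controls (log2 fold change 1.08 ± 0.14, adjusted p = 2.77e-05). CYP707A1, which breaks the hormone down, had 159, 191 and 132 normalized counts under lysoPAF plus ONO, against 71.2, 73.8 and 58.9 in controls (log2 fold change 1.22 ± 0.18, adjusted p = 0.000187), and NCED3, which makes its precursor, also rose (log2 fold change 1.79 ± 0.36, adjusted p = 0.00292). The gene that fell was GOLS1, a galactinol synthase, with 235, 211 and 220.0 normalized counts under lysoPAF plus ONO, against 590.4, 625 and 589 in controls (log2 fold change -1.43 ± 0.14, adjusted p = 1.88e-06). Without *lpcat* control replicate 2 the number lower was 2. Desiccation genes downstream, RAB18 (-0.78 ± 0.38), RD29B (-0.20 ± 0.68) and LTI30 (0.22 ± 0.24), were not past the threshold.

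Jasmonate and ethylene genes moved in few members and in both directions. Of 30 jasmonate genes 5 were higher and 1 lower. JOX2, which oxidises the hormone, had 811, 770.0 and 997 normalized counts under lysoPAF plus ONO, against 413, 488 and 545 in controls (log2 fold change 0.83 ± 0.11, adjusted p = 5.62e-05). The gene that fell was VSP2, a storage protein that marks the response, with 299, 291 and 154 normalized counts under lysoPAF plus ONO, against 496, 484 and 505 in controls (log2 fold change -1.06 ± 0.22, adjusted p = 0.00316), a call lost with the 6 libraries fitted alone. The number higher was 3 without WT control replicate 2, 2 without WT control replicate 3 or WT lysoPAF+ONO replicate 1, and the number lower 2 without *lpcat* control replicate 2. Of 19 ethylene genes 2 were higher and 3 lower, and ERF5, a responsive transcription factor, had 355, 388 and 336 normalized counts under lysoPAF plus ONO, against 198, 208 and 151 in controls (log2 fold change 0.96 ± 0.18, adjusted p = 0.0018). ORA59, which integrates both hormones, had 12.2, 14.8 and 24.1 normalized counts under lysoPAF plus ONO, against 46.7, 40.3 and 42.9 in controls (log2 fold change -1.35 ± 0.32, adjusted p = 0.0102), a call lost without WT lysoPAF+ONO replicate 1. The number lower was 1 without WT control replicate 3 or WT lysoPAF+ONO replicate 2, and 0 without WT lysoPAF+ONO replicate 1.

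Among the genes that fell were many of the cytosolic heat shock response. Of 23 tested, 10 were lower and 0 higher, with a median log2 fold change of -0.74, where 3.33% of all genes tested were lower; without *lpcat* control replicate 2 the number higher was 1. HSP70 (AT3G12580), a heat-induced chaperone, had 180.0, 191 and 246 normalized counts with both compounds, 364, 348 and 368 with lysoPAF and 803, 777 and 768 in controls (log2 fold change -1.94 ± 0.12, adjusted p = 1.26e-09). HSP90.1 (AT5G52640), the inducible HSP90 of the cytosol, had 224, 213 and 251 normalized counts with both compounds, 372, 369 and 402 with lysoPAF and 677, 696 and 680.5 in controls (log2 fold change -1.58 ± 0.19, adjusted p = 1.78e-05). Both fell in each step, with log2 fold changes of -1.12 and -0.82 for HSP70 (adjusted p = 6.62e-05 and 0.000204) and of -0.84 and -0.73 for HSP90.1 (adjusted p = 0.0241 and 0.0277). The transcription factor HSFA2 (AT2G26150), which sustains the response, had 4.69, 1.05 and 3.44 normalized counts under lysoPAF plus ONO, against 15.8, 18.22 and 19.0 in controls (log2 fold change -2.32 ± 0.42, adjusted p = 0.0012), and the coactivator MBF1C had 36.5, 33.7 and 22.9 normalized counts under lysoPAF plus ONO, against 119.5, 130.4 and 83.8 in controls (log2 fold change -1.81 ± 0.28, adjusted p = 0.000238). The co-chaperones ROF2 (241, 226 and 281 normalized counts under lysoPAF plus ONO, against 556, 528 and 472 in controls) and HOP3 (437, 436 and 351 normalized counts under lysoPAF plus ONO, against 844, 844 and 724 in controls) and the disaggregase HSP101 (log2 fold change -0.94 ± 0.12) fell as well. HSP23.5, a small heat shock protein of mitochondria outside this list, had 31.9, 40.0 and 64.2 normalized counts under lysoPAF plus ONO, against 169, 176 and 146 in controls (log2 fold change -1.88 ± 0.25, adjusted p = 4.27e-05). HSP70B (-0.35 ± 0.34), HSFA7A (-0.21 ± 0.16) and DREB2A (0.68 ± 0.30) were not past the threshold. The summed level of the list was 2578, 2570 and 2571 normalized counts in WT lysoPAF+ONO libraries, against 4868, 4752 and 4544 in WT control libraries.

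Chaperones of the ER were lower in part, with the exception of BIP3. Of 29 genes of ER stress and protein folding tested, 14 were lower and 2 higher, with a median log2 fold change of -0.29. The calreticulin CRT1 (AT1G56340), which retains unfolded glycoproteins, had 3756, 3771 and 3415 normalized counts under lysoPAF plus ONO, against 5223, 5117 and 5040 in controls (log2 fold change -0.49 ± 0.07, adjusted p = 0.00011). ERDJ3B, a co-chaperone, had 1045, 1048 and 1013 normalized counts under lysoPAF plus ONO, against 1488, 1729 and 1492 in controls (log2 fold change -0.60 ± 0.10, adjusted p = 0.000431), and SDF2, its partner, had 1104, 1032 and 951 normalized counts under lysoPAF plus ONO, against 1525, 1515 and 1327 in controls (log2 fold change -0.50 ± 0.08, adjusted p = 0.000427). None of these libraries overlapped between the media, which also held downward for 14.5% of all genes tested, and the differences are small. BIP1 (log2 fold change -0.45 ± 0.07, adjusted p = 0.000505) and BIP2 (-0.43 ± 0.08, adjusted p = 0.00229), the main chaperones of the ER lumen, fell, and so did TIN1 (-1.62 ± 0.31, adjusted p = 0.00202). BIP3 (AT1G09080), the copy that is expressed under ER stress, had 32.8, 35.8 and 36.7 normalized counts with both compounds, 439, 286 and 397 with lysoPAF and 0.791, 2.88 and 0.998 in controls (log2 fold change 3.91 ± 0.73, adjusted p = 0.00152), the controls holding 1 to 3 reads a library. It thus rose in the first step (7.26, adjusted p = 5.19e-05) and fell in the second (-3.36, adjusted p = 0.00884). BZIP60, the transcription factor spliced under ER stress, had 313, 306 and 300.2 normalized counts with both compounds, 411, 292 and 345 with lysoPAF and 214, 198 and 176 in controls (log2 fold change 0.65 ± 0.20, adjusted p = 0.0408), a call lost with edgeR's TMM factors, with no filter and without any 1 of the 6 libraries, in which last case 1 member of the list was higher. The sensors IRE1A (0.22 ± 0.08), IRE1B (0.13 ± 0.08) and BZIP28 (-0.12 ± 0.08) were not past the threshold.

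Genes of the early steps of flavonoid synthesis were lower. Of 11 genes tested, 5 were lower and 0 higher, with a median log2 fold change of -0.67. TT4 (AT5G13930), the chalcone synthase that starts the pathway, had 925, 1002 and 1303 normalized counts with both compounds, 2072, 2423 and 2411 with lysoPAF and 2267, 2253 and 2328 in controls (log2 fold change -1.10 ± 0.11, adjusted p = 2.74e-06). CHIL, its accessory protein, had 413, 435 and 393 normalized counts with both compounds, 959, 1073 and 890.5 with lysoPAF and 1009, 1002 and 890.0 in controls (log2 fold change -1.22 ± 0.12, adjusted p = 1.56e-06). For both, lysoPAF alone lay at the level of the controls. FLS1, the flavonol synthase, had 310.2, 326 and 452 normalized counts under lysoPAF plus ONO, against 852, 852 and 768 in controls (log2 fold change -1.20 ± 0.17, adjusted p = 0.000104), TT5, the chalcone isomerase, had a log2 fold change of -1.09 ± 0.16 (adjusted p = 0.000153), and F3H, which overlaps an antisense noncoding gene, had one of -0.98 ± 0.12 (adjusted p = 1.35e-05). The flavonol regulator MYB12 (0.44 ± 0.18) and DFR (-0.53 ± 0.72) and LDOX (0.00 ± 0.72), which lead on to anthocyanins, were not past the threshold.

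Other genes among the 12 largest falls share no list. AZI1 (AT4G12470), a lipid transfer protein-like gene of systemic immunity, had 609, 667 and 488 normalized counts with both compounds, 1762, 2268 and 1910 with lysoPAF and 1838, 1976 and 2130 in controls (log2 fold change -1.76 ± 0.33, adjusted p = 0.0017). LSH4 (AT3G23290), a gene of organ boundaries, had 5.62, 8.43 and 11.5 normalized counts under lysoPAF plus ONO, against 46.7, 34.5 and 39.9 in controls (log2 fold change -2.16 ± 0.44, adjusted p = 0.00313). AT3G53830, annotated in the RCC1 family, had 18.7, 25.3 and 19.5 normalized counts under lysoPAF plus ONO, against 82.3, 90.14 and 72.8 in controls (log2 fold change -1.91 ± 0.21, adjusted p = 5.78e-06). The neighbours AT5G44572 (log2 fold change -2.26 ± 0.44, adjusted p = 0.00225) and AT5G44574 (log2 fold change -1.77 ± 0.24, adjusted p = 7.34e-05) overlap by 133 bases on the same strand, so their reads can be shared. UMAMIT36, an amino acid transporter of the membrane (log2 fold change -1.84 ± 0.45, adjusted p = 0.0133), lost its call without WT control replicate 1 and without WT lysoPAF+ONO replicate 2. The noncoding gene AT2G23672, which overlaps a coding gene (log2 fold change -1.76 ± 0.42, adjusted p = 0.0105), lost it without WT control replicate 1, without WT lysoPAF+ONO replicate 3 and with the 6 libraries fitted alone. LHCB2.1, a light-harvesting protein, had 15.00, 11.6 and 16.0 normalized counts under lysoPAF plus ONO, against 46.7, 45.1 and 119.7 in controls (log2 fold change -2.09 ± 0.60, adjusted p = 0.0318), and its call was lost without any 1 library other than WT control replicate 1.

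In the photosynthesis list 3 of 20 genes were lower and 0 higher, with a median log2 fold change of -0.79, and without WT control replicate 3, the library that stood apart, 0 were lower. The number lower was 1 without WT control replicate 2, 0 without any 1 of the WT lysoPAF+ONO libraries, and 13 without *lpcat* control replicate 2. Plastid encoded genes took 0.00128% ± 0.000144 of reads in WT lysoPAF+ONO libraries and 0.0041% ± 0.00444 in WT control libraries (SD, n = 3 each; exact two-sided permutation p = 0.1, the smallest this design allows), a ratio of 0.312. Without WT control replicate 3 the ratio was 0.831. Mitochondrially encoded genes took 0.0237% ± 0.00262 in WT lysoPAF+ONO libraries and 0.025% ± 0.00196 in WT control libraries (SD, n = 3 each; exact two-sided permutation p = 0.5), and 0 of 55 were past the threshold.

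Few genes of PC turnover were past the threshold. Of 26 genes of the Lands cycle and PC metabolism tested, 2 were higher and 2 lower, with a median log2 fold change of 0.07. PLP2 (AT2G26560), a patatin-like lipid acyl hydrolase induced in defence, had 134, 135 and 120.3 normalized counts with both compounds, 19.3, 20.8 and 18.9 with lysoPAF and 19.0, 21.1 and 26.9 in controls (log2 fold change 2.498 ± 0.24, adjusted p = 1.05e-06). PLDDELTA, a phospholipase D, had 1658, 1586 and 1675 normalized counts under lysoPAF plus ONO, against 1159, 1106 and 1298 in controls (log2 fold change 0.47 ± 0.08, adjusted p = 0.000394). Methyltransferases of choline synthesis were the 2 that fell: NMT1 had 2449, 2452 and 2734 normalized counts with both compounds, 1420, 1726 and 1678 with lysoPAF and 3171, 2954 and 3196 in controls (log2 fold change -0.29 ± 0.09, adjusted p = 0.0377). NMT3 had 659, 652 and 635 normalized counts under lysoPAF plus ONO, against 929, 992 and 888 in controls (log2 fold change -0.53 ± 0.16, adjusted p = 0.0462). The call of NMT3 was lost with no filter, nuclear scaling or a pseudocount of 5. The number lower was 1 without WT lysoPAF+ONO replicate 3 and 0 without any 1 of the other 5 libraries, and the number higher was 4 without *lpcat* control replicate 2. The phospholipases A2 PLA2-ALPHA (-0.07 ± 0.16), PLA2-BETA (-0.10 ± 0.36), PLA2-GAMMA (0.35 ± 0.47) and PLA2-DELTA (-0.39 ± 0.63), the family that ONO inhibits, were not past the threshold.

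Endomembrane genes that the study names were taken as a list, which was chosen on these samples and is no independent evidence of direction. Of 16 tested, 4 were higher and 0 lower: AP180, PRA1.B5, SAR1A and BZIP60. AP180 (AT1G05020), a clathrin adaptor, had 41.2, 46.4 and 33.2 normalized counts with both compounds, 21.0, 24.6 and 30.5 with lysoPAF and 15.8, 15.3 and 13.0 in controls (log2 fold change 1.39 ± 0.21, adjusted p = 0.000237). PRA1.B5 had 41.2, 41.1 and 44.7 normalized counts with both compounds, 43.7, 53.9 and 54.7 with lysoPAF and 21.4, 20.14 and 17.96 in controls (log2 fold change 1.06 ± 0.28, adjusted p = 0.0208), a call lost with edgeR and without any 1 of the 6 libraries but WT control replicate 1. SAR1A, a small GTPase of vesicle budding at the ER, had 7.50, 4.21 and 4.58 normalized counts with both compounds, 26.1, 23.6 and 26.3 with lysoPAF and 0, 0 and 2.00 in controls, of which 2 libraries were at 0, and its call was lost without any 1 library other than WT control replicate 3, with DESeq2, with edgeR, with a pseudocount of 5 and with the 6 libraries fitted alone. SEC31A, a coat protein of the same vesicles, had 17.8, 20.0 and 43.5 normalized counts with both compounds, 59.7, 53.9 and 63.1 with lysoPAF and 3.96, 5.75 and 2.99 in controls and missed the threshold (adjusted p = 0.125). Both vesicle genes were highest with lysoPAF alone. The number higher was 1 or 2 without any 1 of the 6 libraries and 9 without *lpcat* control replicate 2, when 2 were lower. DCD, CDC48D, EXO70H4, ROP9, ARFB1A, SEC1B, PRA1.F1, VPS45, EXO70H2, NAC103 and ERDJ3A were not past the threshold, with log2 fold changes from -0.73 to 1.21.

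Whether WT roots responded differently from *lpcat* roots was tested as the interaction of genotype and treatment, the log2 fold change of lysoPAF plus ONO over control in WT minus that in *lpcat*. In *lpcat* itself, 484 genes (2.04%) were called higher and 97 (0.408%) lower. The interaction was past an adjusted p of 0.05 in limma in 191 genes (0.804% of those tested), of which 143 (0.602%) were more positive in WT and 48 (0.202%) more negative. Among them, 85 were higher in WT and not past the threshold in *lpcat*, and 16 were higher in WT and lower in *lpcat*. Others were not past the threshold in WT, of which 35 were lower and 22 higher in *lpcat*. Without *lpcat* control replicate 2, which stood apart, 1524 genes had an interaction, and all 191 were among them with the same sign. Since so many more genes pass in that fit, this says little about the stability of the 191. With any 1 of the other 11 libraries left out the number was 72 to 231, the lowest without WT lysoPAF+ONO replicate 2 or *lpcat* lysoPAF+ONO replicate 2. Without each of the 12 libraries in turn, 60 of the 191 remained past the threshold, among them those named below unless a library is given. With the 12 libraries compared fitted alone 54 of the 191 remained, and of those named below COW1, RHD2, EXPA18, F6'H1, PHT1;1, CHX17 and HSP90.1 were then not past the threshold. DESeq2 gave 353 genes.

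Root hair genes carried many of these differences. Of 26, 10 had an interaction, all more positive in WT, and 18 had one without *lpcat* control replicate 2. The median log2 fold change of the list was 0.62 in WT and -0.11 in *lpcat*. The mean log2 difference of its members from their WT control mean was 0.666, 0.705 and 0.444 in WT lysoPAF+ONO libraries. It was 0.595, 0.487 and 0.439 in *lpcat* lysoPAF+ONO libraries. In *lpcat* control libraries it was already 0.746, 0.45 and 0.676, against -0.038, -0.011 and 0.049 in WT control libraries. The genotypes thus differed more on control medium than with both compounds. COW1, a lipid transfer protein that shapes the hair tip, had 653, 693 and 520.1 normalized counts in WT lysoPAF+ONO libraries and 357, 408 and 336 in WT control libraries, and 609, 638 and 547 in *lpcat* lysoPAF+ONO libraries and 769, 592 and 663 in *lpcat* control libraries (interaction 0.92 ± 0.16, adjusted p = 0.00651). LRL3, a transcription factor of hair growth, had 544, 548 and 605 in WT lysoPAF+ONO libraries and 326, 306 and 430.0 in WT control libraries, and 401, 423 and 459.9 in *lpcat* lysoPAF+ONO libraries and 517, 489 and 667 in *lpcat* control libraries (interaction 1.06 ± 0.17, adjusted p = 0.00519). In both genes WT control had the lowest mean of the 4 groups. XTH14, a wall enzyme of the hair (interaction 0.89 ± 0.14, adjusted p = 0.00418), and COBL9, a wall-anchored protein of the hair (0.83 ± 0.14, adjusted p = 0.00431), also differed. RHD2 had an interaction (0.59 ± 0.13, adjusted p = 0.0385) that was lost without any 1 of 9 of the 12 libraries, and EXPA18 one (0.76 ± 0.14, adjusted p = 0.0132) that was lost without WT control replicate 2, WT lysoPAF+ONO replicate 2 or *lpcat* lysoPAF+ONO replicate 2. PRP1, with the largest rise of the list in WT, did not have an interaction past the threshold (0.61 ± 0.20, adjusted p = 0.215).

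**Figure D5:**
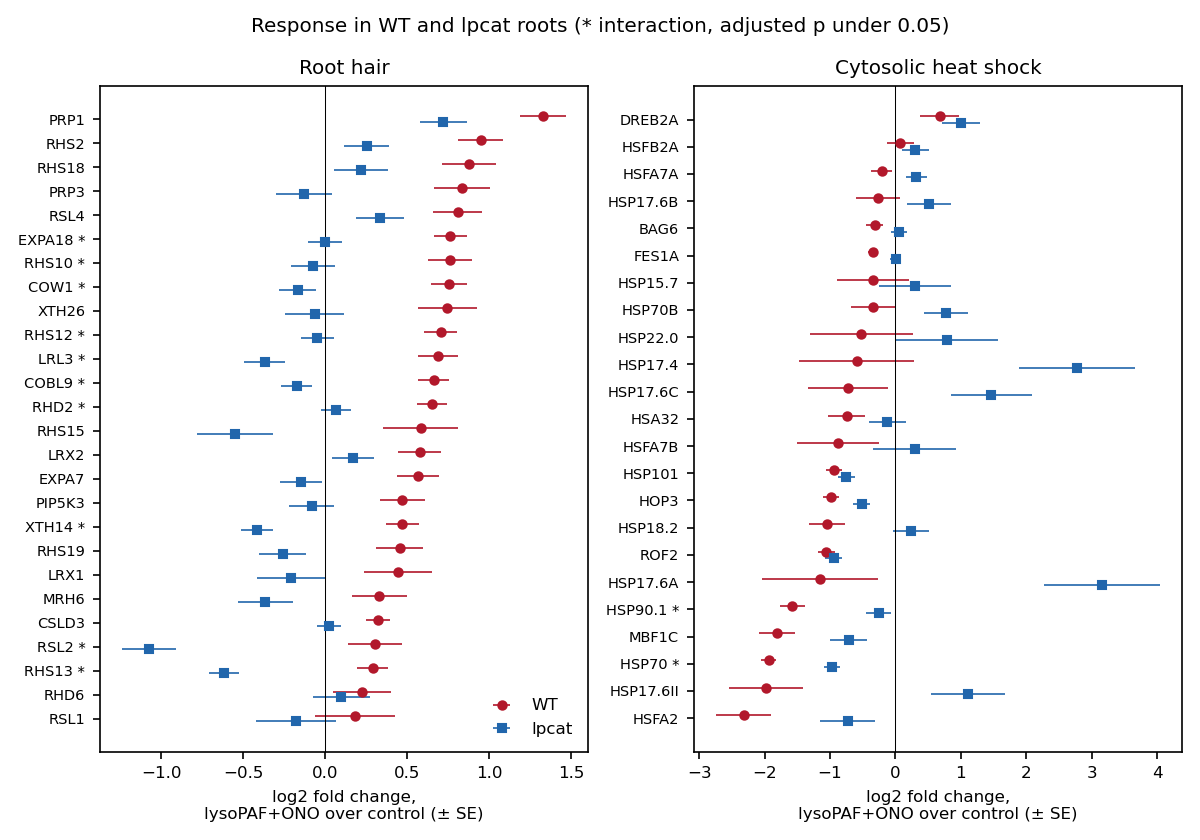
Points give the log2 fold change of lysoPAF plus ONO over control, with its standard error, for each member of the root hair and cytosolic heat shock lists in WT and in *lpcat*; an asterisk marks an interaction with adjusted p under 0.05. Root hair genes lie above 0 in WT and around 0 in *lpcat* (medians 0.62 and -0.11), and most heat shock genes lie below 0 in WT (median -0.74). The mean level of the root hair list was already higher in *lpcat* control than in WT control libraries.

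Other genes with an interaction are found in uptake and in the endodermis. AMT1;1 had 1224, 1264 and 1106 normalized counts in WT lysoPAF+ONO libraries and 571, 554 and 543 in WT control libraries, and 924, 1069 and 1167 in *lpcat* lysoPAF+ONO libraries and 1039, 907 and 831 in *lpcat* control libraries (interaction 0.92 ± 0.12, adjusted p = 0.000814). F6'H1 rose in WT and had a log2 fold change of -0.02 in *lpcat* (interaction 1.17 ± 0.22, adjusted p = 0.0119). The water channel PIP2;4 rose in WT and had one of -0.27 in *lpcat* (interaction 0.96 ± 0.16, adjusted p = 0.00546). The phosphate transporter PHT1;1 (interaction 1.21 ± 0.23, adjusted p = 0.014) rose in WT as well, with an interaction that was lost without *lpcat* lysoPAF+ONO replicate 2. Of 14 endodermis genes 5 had an interaction, all more positive in WT, such as PER64, a peroxidase of the Casparian strip (0.65 ± 0.11, adjusted p = 0.00767). CHX17 rose in both genotypes, with a log2 fold change of 3.09 ± 0.15 in WT and 1.91 ± 0.15 in *lpcat* (interaction 1.18 ± 0.21, adjusted p = 0.0106). In the other direction, the oxidase AT5G44400 had 319.6, 272 and 296 normalized counts in WT lysoPAF+ONO libraries and 446, 433 and 466 in WT control libraries, and 892, 738 and 828 in *lpcat* lysoPAF+ONO libraries and 442, 311 and 416 in *lpcat* control libraries (interaction -1.68 ± 0.17, adjusted p = 0.000102).

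Of the heat shock genes 2 of 23 had an interaction, both more negative in WT, and 13 had one without *lpcat* control replicate 2. HSP70 had 180.0, 191 and 246 normalized counts in WT lysoPAF+ONO libraries and 803, 777 and 768 in WT control libraries, and 440.1, 516 and 443 in *lpcat* lysoPAF+ONO libraries and 849, 1083 and 821 in *lpcat* control libraries. It fell in both genotypes, with log2 fold changes of -1.94 ± 0.12 in WT and -0.97 ± 0.12 in *lpcat* (interaction -0.97 ± 0.17, adjusted p = 0.00651). HSP90.1 had 624, 759 and 686 in *lpcat* lysoPAF+ONO libraries and 675, 1347 and 607 in *lpcat* control libraries (interaction -1.32 ± 0.27, adjusted p = 0.0225), and its interaction was lost without any 1 of 9 of the 12 libraries. The genes of the largest rises gave no interaction past the threshold: CYP71A12 rose by 4.85 in *lpcat* (interaction 0.11 ± 0.18, adjusted p = 0.885), AT1G26410 by 4.78 (0.85 ± 0.42, adjusted p = 0.455) and HAK5 by 3.91 (0.59 ± 0.60, adjusted p = 0.764). Such a p does not show that the genotypes respond alike.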

How the data were processed

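Root RNA was sequenced from TruSeq libraries, 3 for each of 6 groups. Per the submitters' processing notes, reads were handled with STAR 2.4.0j, StringTie 1.0.3, HTSeq 0.6.0 and DESeq2 1.12.4 on TAIR10. The strand setting of the counting is not given in the sources used here, and 49 of 193 named genes with a position overlap another gene, so reads of such pairs may be mixed. The deposited signal is a normalized count, each read count divided by the library's size factor by the authors. Dividing by the smallest step of each library gave whole reads for 100% of 400470 values above 0 (within 0.001 reads), which were used only for depth and for DESeq2 1.42.0 and edgeR 4.0.16 as alternatives. Libraries held 8681898 to 16767002 reads in genes. Of 35197 rows, 8854 were 0 in every library and 501 carried no gene identifier.

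Values were tested as log2(normalized count + 1) with limma 3.58.1 in R 4.3.3 (trend of the variance, 1 coefficient per group, all 18 libraries, Benjamini-Hochberg adjustment over 23760 genes). The procedure was also run on simulated counts. These held no outlying library and no changed genes with few reads, so such cases were not tried. A call needed both an adjusted p under 0.05 and a log2 fold change beyond 1 in size, and members of lists and interactions by the adjusted p alone. Organelle shares were compared with exact permutation tests. The gene lists were chosen with earlier results of these data known, 5 families were added after their values were seen, and lists are described by counts and medians without set tests. Members given by a symbol pattern include a few genes of other families, and for 3 members the written identifier was kept where the symbol pointed elsewhere. Named genes were drawn from, of the called genes, the 12 that rose most and the 12 that fell most among those that average at least 1 CPM and do not overlap between groups, the 4 members of each list with the smallest p, LPCAT1, LPCAT2 and the endomembrane genes named by the study, and the 6 largest interactions; further members of lists were named after their values were seen. Promoters come from RefSeq, TAIR10.1. Alternatives were DESeq2, edgeR with RLE or TMM, other pseudocounts and filters, nuclear scaling, a stricter p, a block for the replicate number, a fit of the compared libraries only, and leaving out each library.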

Additional observations from a re-analysis of the deposited data

Results flagged for a closer look

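For 27 of the genes named by the rules, the response to lysoPAF plus ONO differed between WT and *lpcat* roots by the interaction test in limma (adjusted p under 0.05). All 27 remained past the threshold without *lpcat* control replicate 2, the library that stood apart. That fit called 1524 genes in place of 191, so remaining past the threshold in it says little. Values are the log2 fold change in WT minus that in *lpcat*. Without each of the 12 libraries in turn, 7 of the 27 remained past it: HSP70 (-0.97), F6'H1 (1.17), PER64 (0.65), AMT1;1 (0.92), the peroxidase AT1G30870 (1.05), PIP2;4 (0.96) and CHX17 (1.18). With the 12 libraries compared fitted alone, 6 of the 27 remained past it, HSP70, PER64, AMT1;1, AT1G30870, PIP2;4 and PASPA3.

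The others lost it without at least 1 library. In the root hair and root cap lists these were EXPA18 (0.76), RHD2 (0.59), RHS12 (0.75) and PASPA3 (1.04). In uptake and wall lists they were IRT2 (1.03), ABCG37 (0.60), CASP1 (0.56), PER4 (1.099), the peroxidase AT1G34510 (1.097), TIP2;3 (1.11) and the phosphate transporter gene PHT1;2 (2.13). AP180 (1.35) and the immune regulator WRKY29 (0.99) were also more positive in WT, and HSP90.1 (-1.32) more negative. DIN2, a beta-glucosidase expressed under sugar starvation, had an interaction of -3.76, with 36.5, 30.6 and 16.0 normalized counts in WT lysoPAF+ONO libraries and 103, 110.3 and 47.9 in WT control libraries, and 67.6, 117 and 83.5 in *lpcat* lysoPAF+ONO libraries and 7.25, 95.9 and 8.71 in *lpcat* control libraries. LPCAT2 itself had one of -0.70, and in *lpcat* it is the disrupted gene. The cupin AT5G39150 (-3.94), AT5G52390, annotated in the PAR1 family (-2.42), the noncoding gene AT1G15405 (3.12) and the small nuclear RNA gene U1.5 (2.63) were the other genes with large values, and the noncoding ones are short or repeated, so that their reads are uncertain. Of the 12 fits without 1 library, DIN2, AP180, WRKY29 and AT5G52390 remained past the threshold in 2, AT1G15405 in 3 and AT5G39150 in 4. U1.5 did so in 8, and RHS12 and LPCAT2 in 11.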

How the results depend on the processing

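Only the named genes and their interactions were recomputed for direction, and 0 of these values reversed under the alternatives. Most were named for a large change or a small p in the same fit, so their sign was likely to hold. Against 474 genes called higher and 109 lower, DESeq2 on the recovered reads called 430 and 98, edgeR 451 and 100 with RLE factors and 440 and 104 with TMM, and the 6 libraries fitted alone 431 and 108. A pseudocount of 5 gave 370 and 71, one of 0.5 gave 463 and 114, no filter 460 and 116, filterByExpr 413 and 97, and scaling on nuclear genes 480 and 107. An adjusted p under 0.01 left 316 and 53. Without *lpcat* control replicate 2 the calls were 569 and 184. Without 1 WT library at a time they were 358 to 436 higher and 77 to 120 lower. For the interaction, against 191 genes, DESeq2 gave 353, the 12 libraries compared alone 54, an adjusted p under 0.01 gave 50, and leaving out 1 library gave 72 to 231, or 1524 without *lpcat* control replicate 2. The ratio of plastid reads ranged from 0.236 to 0.831 without 1 library at a time. The cause of these shifts was not tested. Of the 158 named genes past the threshold, 117 remained so in all 6 fits without 1 WT library, and of the 24 largest changes 21 did. Replicate numbers are shared by the groups, but not every same-numbered pair deviated together (correlations 0.031, 0.084 and 0.154); replicates 2 and 3 with both compounds correlated best with the control of their own number and replicate 1 with control replicate 2 (0.086). With a replicate block, 479 genes were called higher, 120 lower and 187 with an interaction. Depth limits genes with few reads: 173 of the genes called higher averaged under 10 normalized counts in WT control.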

Other observations

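Some gene groups that the comparison above leaves out had a few members past the threshold in WT lysoPAF+ONO against WT control roots (limma, adjusted p under 0.05). Over all genes tested 6.39% were higher and 3.33% lower, and a list of few genes can pass these shares by 1 gene. In the sulfur list 0 of 15 genes were higher and 2 lower, and the sulfate transporter SULTR2;1 had 329, 343 and 386 normalized counts under lysoPAF plus ONO, against 537, 572 and 526 in controls (log2 fold change -0.63 ± 0.12, adjusted p = 0.00179), while the marker of sulfur starvation SDI1 had a log2 fold change of 0.53 ± 0.25 (adjusted p = 0.205). The number lower was 1 without WT control replicate 2 or WT lysoPAF+ONO replicate 1 or 2, and 1 was higher without *lpcat* control replicate 2. In the zinc list 1 of 7 was higher and 1 lower, the transporter ZIP3 having 295, 293 and 314 normalized counts under lysoPAF plus ONO, against 171, 198 and 198 in controls (log2 fold change 0.67 ± 0.15, adjusted p = 0.00546). The gene that was lower, ZIP4, lost its call with edgeR, no filter, a pseudocount of 5, the 6 libraries fitted alone and without any 1 of the 6 but WT lysoPAF+ONO replicate 3, and 2 genes were higher without *lpcat* control replicate 2. Of 9 cytokinin genes 1 was higher and 1 lower. The response regulator ARR6 had 349.6, 362 and 338 normalized counts under lysoPAF plus ONO, against 492, 509 and 556 in controls (log2 fold change -0.57 ± 0.10, adjusted p = 0.000958), and CKX4, which degrades the hormone, had 189, 192 and 214 normalized counts under lysoPAF plus ONO, against 104, 99.7 and 73.8 in controls (log2 fold change 1.11 ± 0.28, adjusted p = 0.0141), a call lost without WT control replicate 3, whereas 3 genes were higher without *lpcat* control replicate 2.

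Of 22 genes of xenobiotic detoxification 5 were higher (22.7%) and 1 lower (4.55%), against 6.39% and 3.33% of all genes tested. The sterol desaturase CYP710A1 had 607, 601 and 573 normalized counts under lysoPAF plus ONO, against 347, 341 and 299 in controls (log2 fold change 0.85 ± 0.19, adjusted p = 0.0063), and the glucosyltransferase UGT73B3 had 625, 634 and 627 normalized counts under lysoPAF plus ONO, against 425, 426 and 423 in controls (log2 fold change 0.56 ± 0.10, adjusted p = 0.000637). Without *lpcat* control replicate 2, 8 were higher, and without WT lysoPAF+ONO replicate 2, 0 were lower. Of 8 hypoxia genes 1 was higher and 2 lower. Sucrose synthase SUS1 had 341, 369 and 489 normalized counts under lysoPAF plus ONO, against 269, 264 and 259 in controls (log2 fold change 0.58 ± 0.11, adjusted p = 0.00168), a call lost with the 6 libraries fitted alone. The number lower was 1 without WT control replicate 1 and 0 without WT control replicate 2 or 3 or WT lysoPAF+ONO replicate 1 or 2, and the number higher 2 without *lpcat* control replicate 2. In the list of 14 genes that respond to mitochondrial dysfunction, 3 rose (21.4%) and 1 fell (7.14%). Among them is AOX1A, the alternative oxidase, with 274, 304 and 282 normalized counts under lysoPAF plus ONO, against 187, 169 and 164 in controls (log2 fold change 0.73 ± 0.23, adjusted p = 0.0478), a call lost with DESeq2, edgeR, no filter and a pseudocount of 5. The number higher was 0 to 2 without any 1 of the 6 libraries and 6 without *lpcat* control replicate 2.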
